A study of Homo sapiens with 12 samples.

Results

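The genes described here are 32 genes of sterol and fatty acid synthesis, taken by symbol from the table of RNA counts: 18 of the sterol arm, 7 of the fatty acid arm, and 7 that regulate both arms or move, store or export sterols. The table held 25369 gene symbols, of which 12514 had enough counts to be tested, and all 32 genes were present and tested. RNA came from tumours of MDA-MB-231, an established triple-negative breast cancer line, grown in the mammary fat pad of mice from cells injected in 50 µl of Matrigel. Treatment started once tumours reached 100 mm3 and was given by intraperitoneal injection on 5 days a week. Each of 4 groups had 10 mice, and RNA from 3 tumours per group was sequenced. The control group received vehicle only (4% DMSO, 30% PEG300, 5% Tween 80). Mice of the p38i group were given SB202190, which blocks p38 MAP kinases, at a dose of 1 mg/kg/day. Mice of the EZH2i group were given EPZ-6438 (tazemetostat), which blocks EZH2, the histone methylating enzyme of Polycomb complexes, at a dose of 10 mg/kg/day. The combination group received both compounds at these doses. All groups carried the same single cell line, and the mouse strain and the length of treatment are not given in the sources used here. Libraries are named by group and tumour number, such as control 1-1; the p38i libraries col5 and col6 are named by their column in the table, because the labels assign column 5 to both of these tumours and column 6 to none, so that column 6 is p38i by elimination. The titles number the tumours separately, but litters and harvest days are not given, so p-values measure the spread between these samples.

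Cells make cholesterol from acetyl-CoA through mevalonate, farnesyl diphosphate and squalene, and they make fatty acids from the acetyl-CoA that ATP citrate lyase releases. Both arms are transcribed under the sterol regulatory element-binding proteins (SREBPs). SCAP carries the SREBPs to the Golgi for cleavage when sterols are low, and INSIG proteins hold SCAP back when sterols are high. SREBP-2, the product of SREBF2, mainly drives the sterol genes, and SREBP-1c, a product of SREBF1, mainly drives the fatty acid genes. Growing tumours draw on both arms for membranes.

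The upstream sequence of 4 of these genes is shown to place the DNA motifs read at SREBP-controlled promoters beside the RNA values. STARD4 and SCD were higher in all treated libraries than in all controls, INSIG1 encodes the feedback brake, and SREBF2 held the one match to the sterol regulatory element form that was searched. Each run is the 250 bases upstream of the gene's start in RefSeq (GRCh38.p14), read 5′ to 3′ on the gene's strand: STARD4 chr5:111512536-111512785 (minus strand), SCD chr10:100346983-100347232 (plus strand), INSIG1 chr7:155297628-155297877 (plus strand) and SREBF2 chr22:41832855-41833104 (plus strand). Capitals mark TCACNCCAC (a sterol regulatory element form), CCAAT (the NF-Y motif) and GGGCGG (the Sp1 motif), each on either strand.
STARD4: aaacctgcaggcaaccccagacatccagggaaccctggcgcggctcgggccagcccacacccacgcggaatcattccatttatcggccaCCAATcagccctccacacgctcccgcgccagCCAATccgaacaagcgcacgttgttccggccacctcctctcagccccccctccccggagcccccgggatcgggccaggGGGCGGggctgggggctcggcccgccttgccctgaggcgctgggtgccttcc
SCD: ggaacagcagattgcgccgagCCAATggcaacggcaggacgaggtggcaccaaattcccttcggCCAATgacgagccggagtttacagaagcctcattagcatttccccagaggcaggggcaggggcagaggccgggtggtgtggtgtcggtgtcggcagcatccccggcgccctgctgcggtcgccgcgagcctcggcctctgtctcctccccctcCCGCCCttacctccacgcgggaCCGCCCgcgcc
INSIG1: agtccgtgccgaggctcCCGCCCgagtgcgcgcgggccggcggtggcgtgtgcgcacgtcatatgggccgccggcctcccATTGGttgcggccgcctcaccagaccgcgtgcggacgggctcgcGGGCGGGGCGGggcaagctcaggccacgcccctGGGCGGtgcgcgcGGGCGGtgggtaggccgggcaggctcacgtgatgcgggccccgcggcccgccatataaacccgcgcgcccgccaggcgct
SREBF2: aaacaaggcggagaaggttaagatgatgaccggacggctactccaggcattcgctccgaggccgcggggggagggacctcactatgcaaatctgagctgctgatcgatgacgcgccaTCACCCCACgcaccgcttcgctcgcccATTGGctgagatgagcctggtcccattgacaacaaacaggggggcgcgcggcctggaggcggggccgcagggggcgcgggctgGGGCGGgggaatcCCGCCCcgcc
RefSeq windows from 250 bases upstream to 50 bases after the start were matched for 28 of the 32 genes, giving 37 windows because some genes have several starts. ACAT2, FDFT1, SQLE and FASN had no window. CCAAT was present in 67.6% of these windows and in 34.9% of the 13774 windows of all genes tested. GGGCGG was present in 89.2% of the windows of the listed genes and in 64.4% of those of all genes tested. TCACNCCAC was present in 1 window, that of SREBF2, which is 2.7% against 1.15% of the windows of all genes tested. The SREBF2 match reads TCACCCCAC, a form contained in the former and found in 0.407% of the windows of all genes tested. A match is a match of letters only and was not tested as a binding site. No other form of the sterol regulatory element was searched, so a window without a match was not shown to lack the element.

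As a group the 32 genes stood mostly above the control after each treatment, by small amounts. In p38i tumours 25 of the 32 had a positive log2 fold change (median 0.32), in EZH2i tumours 24 (median 0.28) and in combination tumours 24 (median 0.26). Over all 12514 genes the medians were -0.001, 0.009 and 0.005. No listed gene passed an adjusted p of 0.05 in any of these comparisons by edgeR's quasi-likelihood test, where 1.77% of all genes passed for p38i, 0.216% for EZH2i and 0.00799% for the combination. DESeq2 called 1 listed gene, STARD4, for p38i and for EZH2i and none for the combination, where it called 5.72%, 2.01% and 1.74% of all genes with an adjusted p. Limma-voom called none of the 32, and 1.32%, 0.128% and 0.00799% of all genes. The 3 comparisons share the same 3 control tumours. Because each library is a whole tumour, fewer cells of a type and less RNA per cell cannot be told apart.

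At an unadjusted p under 0.05 the p38i tumours had 8 of the 32 genes higher and 0 lower, against 9.08% of all genes higher and 9.3% lower. The 8 were HMGCS1, MVK, FDPS, SCD, ELOVL6, FADS1, FADS2 and STARD4. EZH2i tumours had 5 higher (DHCR7, SCD, FADS1, FADS2 and STARD4) and 0 lower, against 7.43% and 7.29% of all genes. Combination tumours had 7 higher (IDI1, MSMO1, DHCR7, SCD, FADS2, INSIG1 and STARD4) and 0 lower, against 7.66% and 8.67% of all genes. These counts moved when single libraries were left out. The share of all genes was not computed for recounts at an unadjusted p, here or below. It is therefore not known whether the moves are particular to the listed genes. Without control 1-1 the counts were 3, 2 and 1 in the same order. Without EZH2i 5-4 the EZH2i count was 1, and without combination 9-1 the combination count was 1. Without p38i col6 the p38i count was 4, and without control 1-3 the combination count was 4. STARD4 was among the genes counted in these recounts without control 1-1, EZH2i 5-4, combination 9-1 and p38i col6. Counts also went up: the EZH2i count was 9 without control 2-1, 9 without EZH2i 5-3 and 8 without EZH2i 6-1, and the combination count was 11 without combination 8-1. With library totals in place of TMM the combination count was 11, and with only the groups compared it was 4.

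The spread of single libraries also shows without a model. All 3 p38i libraries lay above all 3 controls for 8 of the 32 genes, against 12.3% of all genes, and below them for 0, against 12.5%. For EZH2i the counts were 4 and 0, against 8.32% and 8.09%. For the combination they were 6 and 0, against 10.7% and 11.2%. All 9 treated libraries lay above all 3 controls for 4 of the 32 (SCD, FADS1, FADS2 and STARD4), against 2.79% of all genes, and below them for 0, against 3.33%. Control 1-1 was the lowest of the 12 libraries for 14 of the 32 genes, or 43.8%, where it was the lowest for 16.5% of all genes tested. EZH2i 5-4 was the highest for 12, or 37.5%, where it was the highest for 15.1% of all genes. The 32 genes together took 0.137% of the counts in control 1-1 and 0.255% in EZH2i 5-4, the lowest and highest shares among the 12 libraries.

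**Figure D1:**
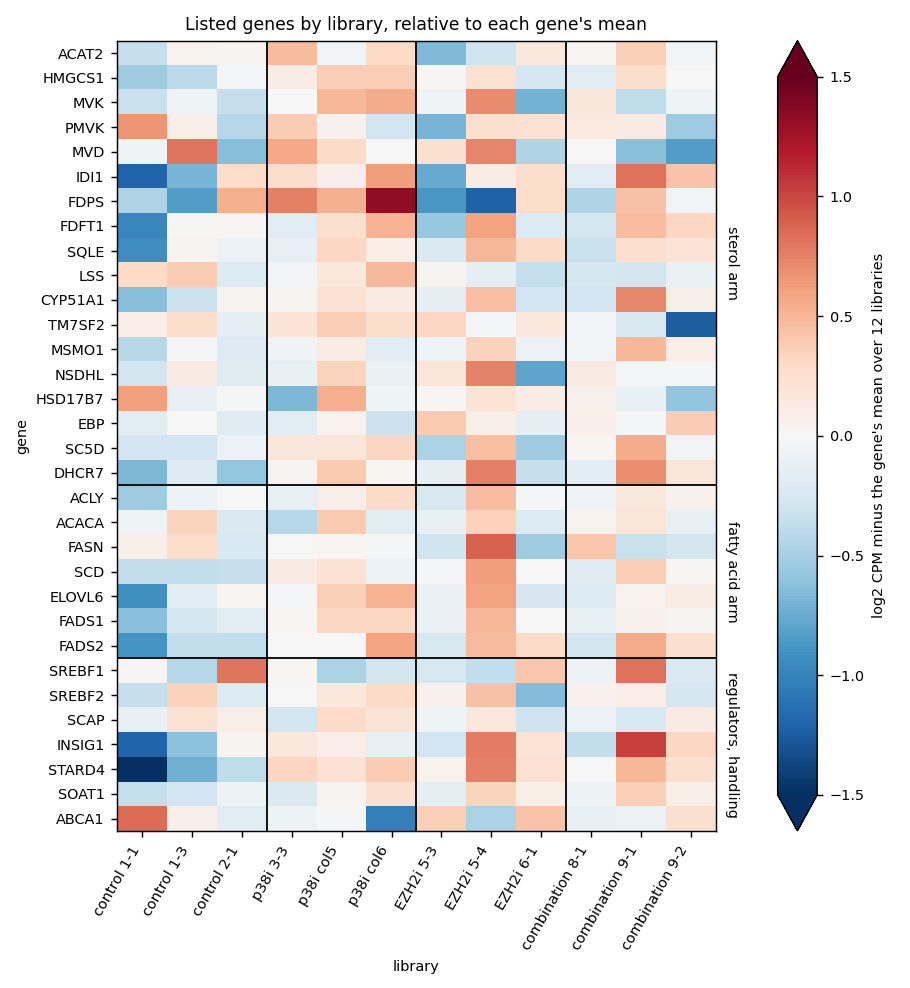
Level of each of the 32 genes (rows) in each of the 12 libraries (columns) as log2 CPM (reads scaled to library size) minus the gene's mean over the 12 libraries, with colours capped at 1.5 in either direction. Blue cells gather in control 1-1 and red cells in EZH2i 5-4 and combination 9-1, the libraries in which 14 genes were lowest and 12 and 7 genes were highest.

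The mevalonate steps, from acetyl-CoA to farnesyl diphosphate, had their highest median in p38i tumours. Of their 7 genes, 6 were higher than control after p38i with a median of 0.59, 4 after EZH2i with a median of 0.16, and 5 after the combination with a median of 0.17 on the log2 scale. HMGCS1, the cytosolic HMG-CoA synthase, measured 79.9, 87.4 and 115 CPM (counts scaled to library size) in the controls, 125, 150.1 and 150.0 in p38i, 119, 135 and 96.9 in EZH2i, and 103, 139.8 and 116 in the combination. The p38i libraries were all above the controls, while the EZH2i and combination libraries overlapped them. The log2 fold change was 0.59 ± 0.18 (SE; adjusted p 0.11) for p38i, 0.31 ± 0.18 for EZH2i and 0.34 ± 0.18 for the combination. FDPS, which makes farnesyl diphosphate, measured 2.91, 2.1 and 6.4 CPM in the controls, 7.5, 6.35 and 11.5 in p38i, 2.03, 1.49 and 5.24 in EZH2i, and 2.93, 5.94 and 4.08 in the combination. It was high in p38i, with 1 library just under the highest control, and its fold change was 1.11 ± 0.49 there (adjusted p 0.25) and -0.50 ± 0.56 in EZH2i. FDPS rests on 5 to 47 counts per library and has 8 pseudogenes named after it in GENCODE, so its reads may be split among copies. MVK, the mevalonate kinase, was higher in all 3 p38i libraries (76.4 ± 14.9 CPM, SD, n = 3) than in the controls (49.7 ± 5.62), with a fold change of 0.62 ± 0.29. MVK overlaps MMAB on the other strand, and the use of strand in counting is not given in the sources used here. IDI1, the isopentenyl diphosphate isomerase, had fold changes of 0.73 ± 0.37, 0.33 ± 0.37 and 0.80 ± 0.37 in p38i, EZH2i and the combination. Its controls ran from 25 to 70.9 CPM and overlapped all 3 treated groups. ACAT2 (a thiolase), PMVK and MVD (the kinase and decarboxylase that follow MVK) lay between -0.68 and 0.37 on the log2 scale in all 3 comparisons, with standard errors from 0.34 to 0.48.

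The steps from squalene to cholesterol showed smaller differences than the mevalonate steps in p38i and larger ones in the other groups, but these differences between segments were not tested. Of the 11 genes, 9 were higher after p38i (median 0.21), 9 after EZH2i (median 0.27) and 8 after the combination (median 0.32). SQLE, the squalene epoxidase and a rate-controlling step, measured 14.2, 28.2 and 25.8 CPM in the controls, 25.2, 34.2 and 29.4 in p38i, 23.6, 39.0 and 33.6 in EZH2i, and 21.7, 32.8 and 31.7 in the combination. All groups overlapped, and control 1-1 was the lowest library. The SQLE fold changes were 0.37 ± 0.27, 0.49 ± 0.27 and 0.32 ± 0.27, and without control 1-1 they were 0.14, 0.26 and 0.0983. DHCR7, which carries out the last reduction of the Kandutsch-Russell branch, measured 9.99, 14.1 and 10.7 CPM in the controls, 16.7, 21.5 and 16.6 in p38i, 14.6, 27.8 and 12.7 in EZH2i, and 14.4, 26.6 and 18.5 in the combination. The p38i and combination libraries were all above the controls, and EZH2i 6-1 fell among them. DHCR7 fold changes were 0.65 ± 0.32, 0.69 ± 0.32 and 0.78 ± 0.31, with adjusted p of 0.29, 0.33 and 0.26, and without EZH2i 5-4 the EZH2i value was 0.23. MSMO1, a sterol-C4-methyl oxidase, measured 60.4, 79.0 and 70.4 CPM in the controls, 77.7, 87.2 and 71.7 in p38i, 76.8, 103 and 75.5 in EZH2i, and 77.9, 114 and 86.0 in the combination. Every group had a library below the highest control, and the fold changes were 0.17 ± 0.19, 0.28 ± 0.19 and 0.40 ± 0.18.

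The other 8 genes of this segment overlapped the controls in most comparisons. SC5D, the lathosterol desaturase, lay above all controls in p38i (60.6 ± 3.51 CPM) and the combination (59.5 ± 14.3), with controls at 44.1 ± 3.64 and EZH2i at 47.7 ± 20.03 (SD, n = 3). CYP51A1, the lanosterol demethylase, had fold changes of 0.40 ± 0.26, 0.33 ± 0.26 and 0.52 ± 0.26, and FDFT1, the squalene synthase, 0.46 ± 0.32, 0.27 ± 0.33 and 0.44 ± 0.32. LSS, the lanosterol synthase, pointed the other way in EZH2i and the combination, at -0.32 ± 0.21 and -0.39 ± 0.21, and was 0.05 ± 0.20 in p38i. TM7SF2, a sterol reductase, was at -0.52 ± 0.31 and HSD17B7, a ketosteroid reductase of the demethylation steps, at -0.41 ± 0.43 in the combination. NSDHL and EBP, a dehydrogenase and an isomerase of the later steps, lay between -0.02 and 0.30 in all 3 comparisons. CYP51A1 has 3 and HSD17B7 has 2 pseudogenes named after them, so their counts are uncertain in the same way as those of FDPS.

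**Figure D2:**
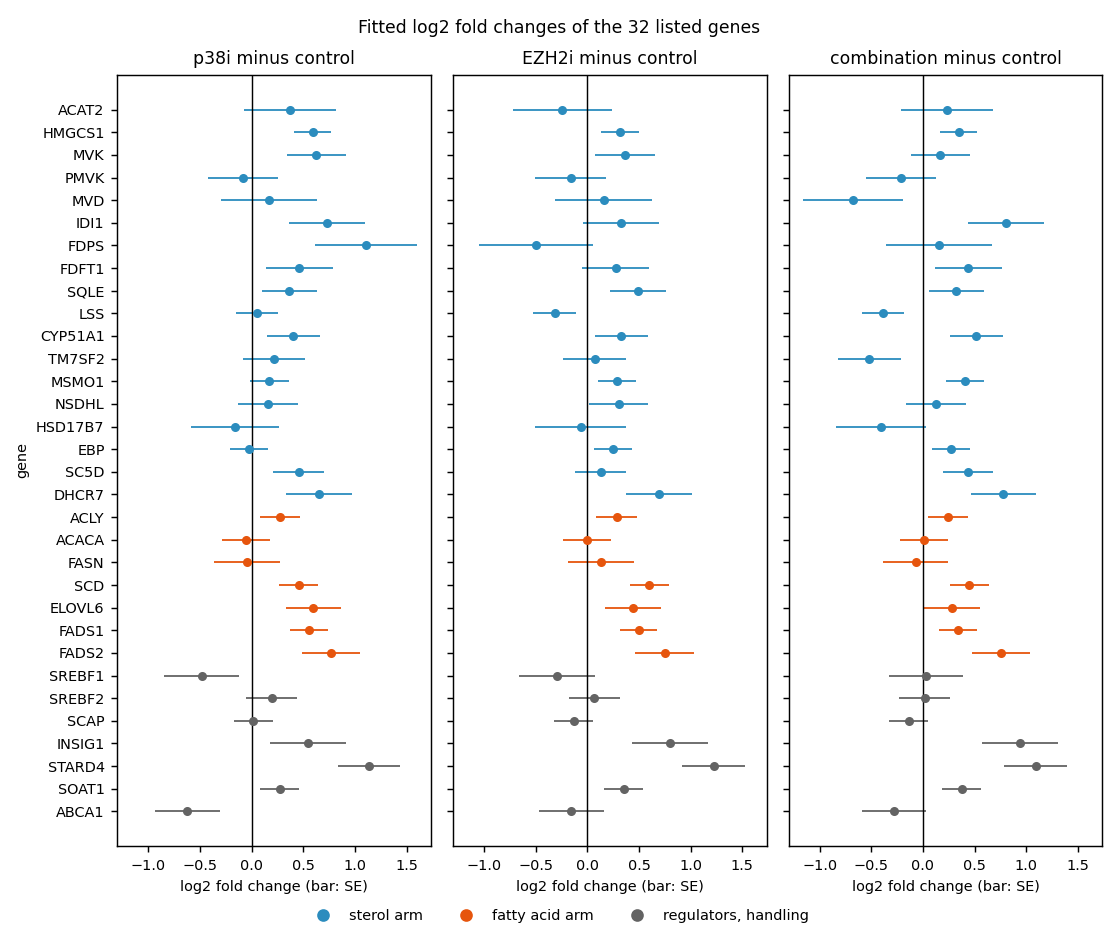
Fitted log2 fold change of each of the 32 genes against control (points) with its standard error (bars) for p38i, EZH2i and the combination, coloured by arm. STARD4 lies at 1.14, 1.22 and 1.09, and the 4 genes of elongation and desaturation lie between 0.28 and 0.77. ACLY lies at 0.28, 0.28 and 0.24, and ACACA and FASN stay between -0.07 and 0.13.

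The medians of the fatty acid arm differed by step. ACLY, ACACA and FASN, which carry citrate carbon to palmitate, had medians of -0.04, 0.13 and 0.01 in p38i, EZH2i and the combination. ELOVL6, SCD, FADS1 and FADS2, which lengthen and desaturate fatty acids, were all higher than control in all 3 comparisons, with medians of 0.58, 0.55 and 0.39. ACLY was the highest gene of its set in each comparison, at 0.28, 0.28 and 0.24, and in the combination it was near ELOVL6 at 0.28. The difference by step was read from the values, and no test compared the 2 sets of steps. SCD, the stearoyl-CoA desaturase that makes oleate, measured 263, 263 and 269 CPM in the controls, 372, 397 and 320.3 in p38i, 337, 526 and 339.6 in EZH2i, and 299, 441 and 344 in the combination. The controls lay close together and every treated library was above them, by a margin that was smallest in combination 8-1. SCD fold changes were 0.45 ± 0.19 (adjusted p 0.22), 0.60 ± 0.19 (adjusted p 0.18) and 0.45 ± 0.19 (adjusted p 0.27), and without EZH2i 5-4 the EZH2i value was 0.35. FADS1, the delta-5 desaturase, measured 72.4, 93.7 and 100.0 CPM in the controls, 115, 139 and 139 in p38i, 104, 159 and 112 in EZH2i, and 104, 118 and 116 in the combination. No treated library reached down to the controls. The FADS1 fold changes were 0.56 ± 0.18 (adjusted p 0.12), 0.50 ± 0.18 (adjusted p 0.24) and 0.34 ± 0.18 (adjusted p 0.36). FADS2, the delta-6 desaturase, measured 10.8, 15.9 and 15.9 CPM in the controls, 20.8, 20.7 and 31.6 in p38i, 17.5, 29.1 and 25.3 in EZH2i, and 17.0, 30.8 and 24.5 in the combination. Again all 9 treated libraries were above the controls, with combination 8-1 nearest to them. FADS2 fold changes were 0.77 ± 0.28, 0.75 ± 0.28 and 0.75 ± 0.28, with adjusted p of 0.16, 0.25 and 0.24. FADS1 and FADS2 overlap on opposite strands, and FEN1, a flap endonuclease of DNA replication, overlaps FADS2 on the same strand, so reads may be shared among them. FEN1 had 102 to 681 counts per library against 26 to 140 for FADS2, and its own fold changes were 0.82 ± 0.31 (adjusted p 0.18), 0.37 ± 0.32 and 0.48 ± 0.31.

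ELOVL6, the elongase of palmitate, measured 17.1, 29.1 and 33.4 CPM in the controls, 32.04, 42.2 and 47.2 in p38i, 30.5, 50.2 and 27.5 in EZH2i, and 28.4, 34.1 and 35.5 in the combination. Every treated group overlapped the controls, among which control 1-1 was lowest. ELOVL6 fold changes were 0.60 ± 0.27, 0.44 ± 0.27 and 0.28 ± 0.27, and without control 1-1 they were 0.38, 0.23 and 0.07. Without EZH2i 5-4 the EZH2i value of ELOVL6 was 0.11. FASN, the fatty acid synthase, measured 68.3, 77.8 and 55.0 CPM in the controls, 64.8, 66.2 and 63.6 in p38i, 52.4, 120.3 and 44.5 in EZH2i, and 86.7, 51.3 and 53.3 in the combination. Its p38i libraries lay inside the control range, and EZH2i 5-4 and combination 8-1 lay above all 3 controls. FASN fold changes were -0.04 ± 0.32, 0.13 ± 0.32 and -0.07 ± 0.32. ACACA, the acetyl-CoA carboxylase, was at -0.06 ± 0.23, 0.00 ± 0.23 and 0.01 ± 0.23. ACLY, which makes cytosolic acetyl-CoA for both arms, was at 0.28 ± 0.19, 0.28 ± 0.19 and 0.24 ± 0.19, with control 1-1 the lowest library at 117 CPM and EZH2i 5-4 the highest at 235.

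**Figure D3:**
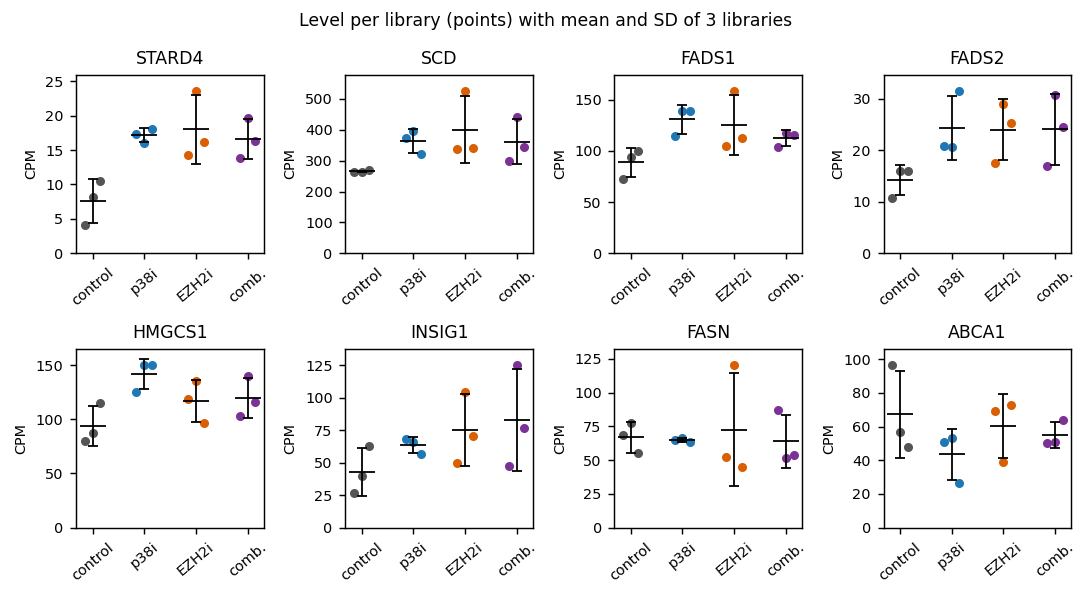
Level in CPM of 8 genes in each library (points) by group, with the mean and SD of 3 libraries, on axes that start at 0. The treated points of STARD4, SCD, FADS1 and FADS2 all lie above the 3 control points, whereas those of HMGCS1 in EZH2i and the combination, and those of INSIG1, FASN and ABCA1, overlap them.

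The SREBP system itself showed no shared direction. SREBF1 measured 14.2, 10.2 and 24.9 CPM in the controls, 14.3, 9.93 and 11.5 in p38i, 11.8, 10.7 and 18.8 in EZH2i, and 13.2, 25.1 and 11.9 in the combination. A single library stood high in the controls and in the combination, and all groups overlapped. SREBF1 fold changes were -0.48 ± 0.37, -0.29 ± 0.37 and 0.03 ± 0.36. SREBF2 measured 51.6, 83.2 and 56.6 CPM in the controls, 65.4, 73.4 and 80.2 in p38i, 68.7, 89.2 and 41.5 in EZH2i, and 68.6, 70.4 and 54.6 in the combination. Its p38i values fell inside the control range, and its fold changes were 0.19 ± 0.24, 0.07 ± 0.25 and 0.02 ± 0.25. SCAP was at 0.02 ± 0.19, -0.13 ± 0.19 and -0.14 ± 0.19. INSIG1, itself a target of the SREBPs, measured 26.2, 39.6 and 62.8 CPM in the controls, 68.2, 65.7 and 56.5 in p38i, 50.0, 105 and 70.7 in EZH2i, and 47.5, 125 and 76.3 in the combination. Each treated group had a library below control 2-1. INSIG1 fold changes were 0.54 ± 0.37, 0.80 ± 0.37 and 0.94 ± 0.37, with adjusted p of 0.46, 0.34 and 0.25. The INSIG1 value was 0.31 for p38i without control 1-1, 0.47 for EZH2i without EZH2i 5-4 and 0.53 for the combination without combination 9-1. RNA of SREBF1, SREBF2 and SCAP does not report cleavage of the SREBP proteins, which was not measured here.

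STARD4, a cytosolic carrier of cholesterol and an SREBP target, had the greatest fold change of the 32 genes in each of the 3 comparisons with all libraries in edgeR. For p38i FDPS was greater with limma-voom, and without control 1-1, control 2-1, p38i 3-3 or p38i col5. It measured 4.16, 8.11 and 10.4 CPM in the controls, 17.4, 16.0 and 18.1 in p38i, 14.2, 23.6 and 16.2 in EZH2i, and 13.8, 19.6 and 16.3 in the combination. All 9 treated libraries were above all 3 controls. The log2 fold changes were 1.14 ± 0.30, 1.22 ± 0.30 and 1.09 ± 0.30, which are 2.2-fold, 2.33-fold and 2.13-fold, with adjusted p of 0.07, 0.12 and 0.18. Over 19 alternative analyses the adjusted p ran from 0.0247 to 0.217 for p38i, from 0.0283 to 0.385 for EZH2i and from 0.05002 to 0.539 for the combination. For p38i it passed the threshold with no low-count filter, with DESeq2, without control 2-1 and without EZH2i 5-4, and for EZH2i with DESeq2 and without control 2-1. STARD4 rests on 10 to 95 counts per library. STARD4-AS1 overlaps it on the other strand with 19 to 65 counts, and had fold changes of 0.36 ± 0.41, 0.56 ± 0.42 and 0.72 ± 0.41. Reads of the 2 genes cannot be told apart if strand was ignored.

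SOAT1, which esterifies cholesterol for storage, was at 0.27 ± 0.19, 0.35 ± 0.19 and 0.37 ± 0.19. ABCA1, the exporter of cholesterol and a target of the LXR receptors, measured 96.6, 57.0 and 48.1 CPM in the controls, 51.1, 53.3 and 26.2 in p38i, 69.5, 38.8 and 72.9 in EZH2i, and 50.1, 50.9 and 64.0 in the combination. Control 1-1 was its highest library and p38i col6 its lowest. ABCA1 fold changes were -0.62 ± 0.32 (adjusted p 0.32), -0.15 ± 0.32 and -0.28 ± 0.31, and without control 1-1 they became -0.27, 0.19 and 0.0725.

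The median of the sterol arm lay below that of the fatty acid arm in each comparison. Median log2 fold changes of the 18 sterol genes and the 7 fatty acid genes were 0.37 and 0.45 for p38i, 0.26 and 0.44 for EZH2i, and 0.25 and 0.28 for the combination. The sterol arm thus lay 0.08, 0.18 and 0.03 below the fatty acid arm. In single libraries the sterol arm minus the fatty acid arm, in median centred log2 CPM, was 0.151 ± 0.046 in the controls, -0.0035 ± 0.0735 in p38i, -0.114 ± 0.111 in EZH2i and 0.0293 ± 0.0934 in the combination (SD, n = 3). All 9 treated libraries lay below all 3 controls on this measure, the highest treated library, combination 9-1, at 0.101 and the lowest control at 0.105. In p38i tumours 15 of 18 sterol genes and 5 of 7 fatty acid genes were higher than control. For EZH2i these counts were 13 and 7, and for the combination 13 and 6. Without EZH2i 5-4 the EZH2i medians were -0.11 for the sterol arm, with 8 of 18 genes higher, and 0.109 for the fatty acid arm, with 5 of 7. Without control 1-1 the medians were 0.235 and 0.381 for p38i and 0.177 and 0.228 for EZH2i. Without that library the combination medians were 0.123 and 0.105, with the sterol arm the higher of the pair. The combination order also turned with a filter that kept genes of at least 5 CPM on average, where the sterol arm was at 0.33 and the fatty acid arm at 0.279. No p-value is given for an arm, because its members were chosen with results of these data known.

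The arms also varied between libraries of 1 group. Median centred log2 CPM of the sterol arm was -0.34, -0.02 and -0.11 in the controls, 0.04, 0.26 and 0.19 in p38i, -0.10, 0.30 and -0.18 in EZH2i, and -0.04, 0.26 and -0.03 in the combination. The p38i libraries were all above the controls, while EZH2i and combination libraries overlapped them. The 4 elongation and desaturation genes had medians of -0.76, -0.31 and -0.25 in the controls and between -0.19 and 0.55 in the 9 treated libraries, so that the groups did not overlap. The gap was narrow, from -0.25 in control 2-1 to -0.19 in combination 8-1. SCD, FADS1 and FADS2 are among the 4 and each showed no overlap singly, so this is not a separate result. ACLY, ACACA and FASN had medians between -0.22 and 0.26 in the controls, a range that held all treated libraries except EZH2i 5-3 at -0.24 and EZH2i 5-4 at 0.46.

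Transcripts of dividing cells also had positive fold changes against control. All 23 listed G2/M genes were higher than control in each of the 3 comparisons, where 49.9%, 51% and 50.4% of all genes were higher. Medians of the 23 genes were 0.73, 0.59 and 0.68 on the log2 scale. In p38i 1 of the 23 passed an adjusted p of 0.05, where 1.77% of all genes passed, and in EZH2i and the combination 0 passed. At an unadjusted p under 0.05, 21, 11 and 13 of the 23 were higher in p38i, EZH2i and the combination, and 0 were lower. Of all genes, 9.08%, 7.43% and 7.66% were higher at this p. The median centred log2 CPM of the G2/M genes was -0.91 in control 1-1, -0.50 in control 1-3 and -0.10 in control 2-1, against -0.21 to 0.66 in the treated libraries. Control 2-1 lay above p38i 3-3 (-0.15) and EZH2i 5-3 (-0.21), so p38i and EZH2i libraries overlapped the controls. The part of the G2/M genes in the differences of the lipid genes was not tested.

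**Figure D4:**
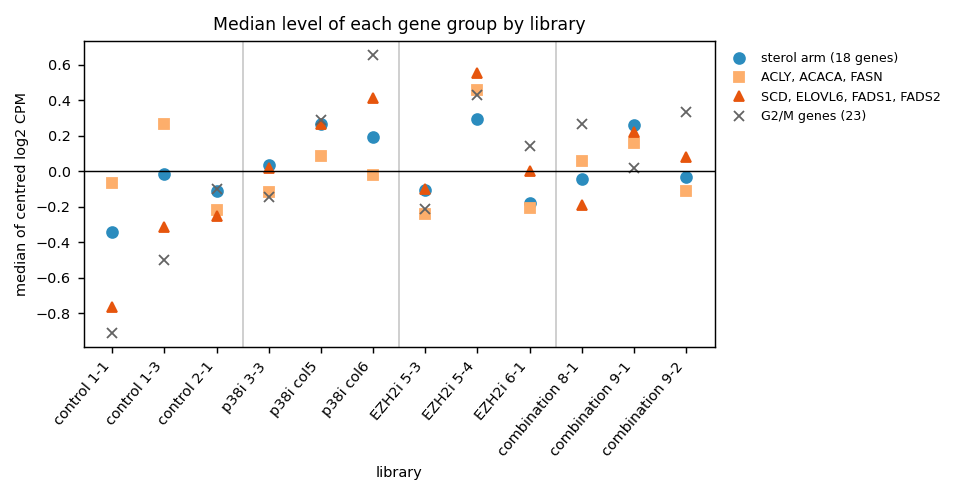
Median of log2 CPM, centred on each gene's mean over the 12 libraries, for the sterol arm, the palmitate steps, the elongation and desaturation genes and 23 G2/M genes, in each library (x axis, lines between groups). The elongation and desaturation genes lie below -0.2 in all 3 controls and above that in all 9 treated libraries, and control 1-1 is lowest for 3 of the 4 gene groups.

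Adding the second compound to the first made no difference that passed the test for any of the 32 genes. Against p38i alone, the combination gave 0 listed genes and 0% of all genes at an adjusted p under 0.05, and against EZH2i alone likewise 0 and 0%. At an unadjusted p under 0.05 the combination differed from p38i in 2 of the 32, LSS at -0.44 ± 0.20 and TM7SF2 at -0.73 ± 0.30, against 7.81% of all genes. Both were lower in the combination. The count of 2 became 0 without p38i col5 or combination 9-2, and 1 without control 1-1, control 1-3, p38i col6 or EZH2i 5-3. From EZH2i the combination differed in 0 of the 32, against 3.12% of all genes, and in 3 without EZH2i 6-1 and 1 without EZH2i 5-4 or combination 8-1. The count against p38i was 4 with only the groups compared, and 1 with library totals or with the filter at a mean of 5 CPM. DESeq2 gave 1 and 0 listed genes and limma-voom 2 and 0 at an unadjusted p under 0.05, and neither called any after adjustment. SCD, FADS2 and STARD4 had combination-minus-p38i values of -0.00 ± 0.19, -0.01 ± 0.27 and -0.05 ± 0.28.

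The interaction, the combination minus both single agents plus control on the log2 scale, asks whether the 2 effects add. It gave 0 listed genes at an adjusted p under 0.05, against 0.024% of all genes. At an unadjusted p under 0.05 it gave 4, or 12.5%, which is not above the 13.1% of all genes. The 4 were HMGCS1 at -0.56 ± 0.26, SCD at -0.60 ± 0.27, FADS1 at -0.71 ± 0.26 and STARD4 at -1.27 ± 0.42, with adjusted p of 0.37, 0.35, 0.24 and 0.20. A negative value means that the combination stood lower than the sum of both single differences. All 4 were negative, where 6.94% of all genes were lower at an unadjusted p under 0.05. The value includes the same 3 controls, so low controls with treated groups alike also give a negative value. For SCD, FADS1 and STARD4 all 9 treated libraries lay above the 3 controls. Their negative values are therefore not separate from that result. DESeq2 and limma-voom also gave 4 at an unadjusted p under 0.05 and called none. The count of 4 became 2 without control 1-1, p38i col5, EZH2i 5-4 or combination 9-2, and 7 without EZH2i 6-1.

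Genes of the same pathways outside the 32 were read from 2 further lists. Of 15 other sterol genes 14 were tested, of which 8, 8 and 9 were higher than control after p38i, EZH2i and the combination, with medians of 0.04, 0.30 and 0.26. NPC1, which exports cholesterol from lysosomes, rose in p38i tumours and was the single gene of this list past the adjusted threshold. It measured 8.74, 18.9 and 18.01 CPM in the controls, 42.6, 39.5 and 29.4 in p38i, 36.6, 57.9 and 36.2 in EZH2i, and 19.3, 32.8 and 29.5 in the combination. All 9 treated libraries lay above the controls, although combination 8-1 was only just above control 1-3. NPC1 fold changes were 1.25 ± 0.30 (adjusted p 0.0478), 1.5 ± 0.30 (adjusted p 0.0639) and 0.81 ± 0.30 (adjusted p 0.24). The p38i call is close to the threshold: in 19 alternative analyses its adjusted p ran from 0.00501 to 0.156 and passed in 9. For EZH2i it ran from 0.00101 to 0.278 and passed in 5 (no low-count filter, DESeq2, and without control 2-1, p38i col6 or EZH2i 5-3), and for the combination from 0.123 to 0.600 with none passing. For p38i it missed the threshold with limma-voom (0.0664), with only the groups compared (0.053), and without any of control 1-1 (0.156), control 1-3 (0.133), p38i 3-3 (0.12), p38i col5 (0.127), p38i col6 (0.107), EZH2i 6-1 (0.0532), combination 9-1 (0.0619) or combination 9-2 (0.0663).

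Of 19 other fatty acid genes 18 were tested, none passed the adjusted threshold, and 12 were higher than control in each comparison, with medians of 0.17, 0.15 and 0.10. At an unadjusted p under 0.05, 3 were higher in each comparison, and 2 were lower in EZH2i alone. Of all genes, 9.08%, 7.43% and 7.66% were higher and 9.3%, 7.29% and 8.67% were lower at this p. LPIN1, a phosphatidate phosphatase, was at 0.84 ± 0.22 (adjusted p 0.0665), 0.63 ± 0.22 and 0.50 ± 0.22. DGAT2, which makes triglyceride, was at -0.60 ± 0.30, -0.89 ± 0.31 and -0.35 ± 0.29, and SCD5, a second stearoyl-CoA desaturase, at -0.78 ± 0.37, -1.11 ± 0.38 and -0.64 ± 0.37. Of 9 genes of the LXR receptors and their targets 7 were tested, of which ABCA1 and SREBF1 also belong to the 32 genes above. Of the 7, 1 was higher (MYLIP after p38i and EZH2i, SREBF1 after the combination) and 6 were lower in each comparison, with medians of -0.48, -0.29 and -0.41, and none passed the threshold. At an unadjusted p under 0.05 there was 1 lower in p38i, 1 lower in EZH2i and 0 in the combination. The shares of all genes lower at this p were 9.3%, 7.29% and 8.67%. NR1H3, which encodes LXR alpha, was at -0.95 ± 0.45, -1.17 ± 0.47 and -0.64 ± 0.44, and APOE, which carries exported lipid, at -1.17 ± 0.51, -0.75 ± 0.51 and -0.55 ± 0.49.

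The libraries held between 2208771 (EZH2i 6-1) and 4467942 (combination 9-1) counts. The 8 genes listed as markers of MDA-MB-231 cells summed to between 8393 and 10989 CPM in every library, of which VIM alone gave 3774 to 6376. Of the 8, 5 were higher and 3 lower than control in p38i and in EZH2i. In the combination 6 were higher and 2 lower, so a steady sum does not mean steady single markers. Fat cells of the mammary pad also carry out lipid synthesis. Host cells of these tumours are mouse cells, whereas reads were aligned to the human build hg19, and the handling of mouse reads is not given. The marker sums below therefore do not measure how many host cells were present. Whether the reads came from tumour or host cells cannot be told. The 12 adipocyte markers summed to 17.5 to 27.3 CPM in the controls, 13.8 to 19.1 in p38i, 12.7 to 28.4 in EZH2i and 14.9 to 23.6 in the combination. The most abundant were PPARG, at up to 13.3 CPM, CFD, at up to 7.49, LIPE, at up to 5.67, and LEP, at up to 4.07. ADIPOQ reached at most 2.44 CPM and PLIN1 1.98, while PLIN4, CIDEC and CIDEA were at 0 in 8, 10 and 11 of the 12 libraries. Fibroblast markers summed to 1018 CPM in control 1-1 and 572 and 459 in the other controls, 291 to 901 in p38i, 646 to 984 in EZH2i and 541 to 1127 in the combination. One of them, PDGFRB, fell in p38i by 2.03 ± 0.45 on the log2 scale (adjusted p 0.0433). Of the 8 fibroblast markers tested, 3 were higher and 5 lower than control in p38i. Their log2 fold changes ran from -2.03 to 1.23, with a median of -0.14. Macrophage markers summed to 20.1 to 40.8 CPM over all libraries. Endothelial markers summed to 72.0 to 117 CPM in the controls, 71.2 to 76.7 in p38i, 66.4 to 89.4 in EZH2i and 76.2 to 80.9 in the combination. Skeletal muscle markers summed to 1598 CPM in p38i col6 and to between 47.0 and 154 CPM in the other 11 libraries. The part of these other cell types in the results was not tested, and the counts of listed genes without p38i col6 are given with the counts above.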

How the data were processed

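The deposited values are raw counts per gene symbol, 1 column per library; the submitters' processing notes name Trim Galore 0.5.0, STAR 2.6.0 and the build hg19. How reads were counted, with which annotation, with or without strand, and whether mouse reads were removed are not given in the sources used here. Per the labels' protocols both a SMARTer kit and QuantSeq, which reads 3' ends, are named. Columns were joined to samples by the column number in the labels; column 5 is given to both of 2 p38i samples and column 6 to no sample, so both columns were used as p38i by group only, column 6 by elimination. A further 3 lines naming no gene held 0 counts and were dropped.

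Genes were filtered with filterByExpr and libraries scaled by TMM in edgeR 4.0.16 (R 4.3.3). All 12 libraries entered a robust quasi-likelihood model of the 4 groups, with two-sided F tests and Benjamini-Hochberg adjustment over 12514 genes at 0.05; every p comes from it unless another tool is named. The biological coefficient of variation was 0.219. The SE of a log2 fold change is its size divided by the square root of F, and CPM are TMM-scaled. The code was tested on simulated counts. Alternatives used library totals, RLE factors, other count filters, DESeq2 1.42.0, limma-voom (limma 3.58.1), only the groups compared, and each library left out in turn.

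The 32 genes, the arms and the other lists were chosen with earlier results of these data known. Genes outside the 32 are named if past the threshold, or if among the 3 smallest p of their list; some genes named by this rule are not reported here.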

Additional observations from a re-analysis of the deposited data

How the results depend on the processing

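The depth, at most 4467942 counts, limits genes with few counts such as FDPS, ACAT2, HSD17B7 and MVD. No paired analysis was possible because the titles share no replicate number between groups, and the fit of only the groups compared gives no interaction. The cause of each change below was not tested, except that leaving out libraries or filters alters what is tested.

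Listed genes called for p38i were 0, and 1 (STARD4) with no low-count filter or with DESeq2, with a range from 0 to 3 on leaving out 1 library (the 3, without control 2-1, were HMGCS1, IDI1 and STARD4). For EZH2i they were 0, 1 with DESeq2, and from 0 to 1 on leaving out 1 library. The other comparisons and the interaction kept 0 under every alternative run. The arm difference for EZH2i, -0.18, ran from -0.36 without control 2-1 to -0.0514 without control 1-1. For p38i, at -0.0839, it ran from -0.146 without control 1-1 to -0.0072 without control 2-1. For the combination, at -0.0295, it ran from -0.0757 without control 2-1 to 0.0183 without control 1-1, and was 0.051 with the filter at a mean of 5 CPM.

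Genes called over all genes were 221 for p38i (82 higher and 139 lower; 102 and 102 with library totals), 27 for EZH2i, 1 for the combination, 0 and 0 for the combination against p38i and EZH2i, and 3 for the interaction. DESeq2 gave 632, 232, 167, 7, 1 and 226 in that order. No low-count filter gave 114 for EZH2i, 42 for the combination, 1 for the combination against p38i and 70 for the interaction. Library totals gave 3 for the combination, limma-voom 16 for EZH2i, and only the groups compared 4 for EZH2i and 4 for the combination. Leaving out 1 library gave from 2 (without p38i 3-3) to 568 (without control 2-1) for p38i, from 2 (without EZH2i 5-4) to 125 (without control 2-1) for EZH2i, from 0 to 229 (without control 2-1) for the combination and from 2 to 42 for the interaction.

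Of 656 fold changes of listed genes recomputed with all libraries, 8 had another sign, and of 1152 with 1 library left out, 55. The members that kept their sign throughout were 24 for p38i, 18 for EZH2i and 25 for the combination. Signs that turned by more than the standard error did so only on leaving out 1 library. For EZH2i, leave-one-out ranges were -0.35 to 0.19 for ABCA1, -1.17 to 0.17 for FDPS, -0.56 to 0.17 for SREBF1, -0.10 to 0.65 for MVK, -0.15 to 0.52 for FDFT1, -0.12 to 0.62 for NSDHL, -0.29 to 0.31 for SC5D, -0.46 to 0.40 for FASN and -0.21 to 0.32 for SREBF2. The turn came without control 1-1 for ABCA1, without control 2-1 for FDPS and SREBF1, and without EZH2i 5-4 for the others. For the combination the ranges were -0.47 to 0.0725 for ABCA1 (positive without control 1-1) and -0.38 to 0.49 for SREBF1 (negative without combination 9-1). The alternatives for NPC1 were added after seeing the data, and none turned its sign.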

Other observations

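Fatty acid oxidation, which breaks down what the fatty acid arm makes, was read from a list of 16 genes, of which 14 were tested. Of these, 6, 8 and 5 were higher than control after p38i, EZH2i and the combination, with medians of -0.12, 0.06 and -0.18, and none passed an adjusted p of 0.05. At an unadjusted p under 0.05 the higher and lower counts were 0 and 1, 0 and 2, and 2 and 1. Over all genes the higher and lower shares were 9.08% and 9.3%, 7.43% and 7.29%, and 7.66% and 8.67%. ETFB, a subunit of the electron transfer flavoprotein, measured 79.9, 110.5 and 85.3 CPM in the controls, 57.9, 69.8 and 60.9 in p38i, 67.5, 67.9 and 45.8 in EZH2i, and 62.4, 55.3 and 39.9 in the combination. All 9 treated libraries were below the controls, and its log2 fold changes were -0.55 ± 0.20, -0.60 ± 0.21 and -0.81 ± 0.21, with adjusted p of 0.17, 0.20 and 0.17 by edgeR. ETFA, which encodes the other subunit, was at 0.29 ± 0.24, 0.26 ± 0.24 and 0.53 ± 0.24. CPT1A, which admits long-chain fatty acids to mitochondria, was at -0.18 ± 0.26, -0.56 ± 0.26 and -0.31 ± 0.26.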
